A study of Homo sapiens and Mus musculus with 17 samples.

Results

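The wild-type (WT) HEK293T baseline consisted of the 3 WT libraries among the 9 HEK293T libraries of the series, which holds 17 libraries in all. HEK293T is an established human embryonic kidney cell line that carries adenoviral DNA and the SV40 large T antigen. All cells were grown in DMEM with fetal bovine serum, and the WT control cells had received the empty plasmid without a guide RNA. The other HEK293T libraries came from cells in which HRD1 (gene symbol SYVN1; 3 libraries) or SEL1L (3 libraries) had been disrupted with CRISPR/Cas9. They were used here only where WT is set against a knockout or where replicate differences are compared. The labels give no culture date and do not say whether the 3 libraries of a group came from separate cultures, so the spread below may be partly technical. Levels are in FPKM, fragment numbers scaled to transcript length and to the fragments of a library, which allows genes of different length to be compared. The number of reads per library is unknown from such values, and no counting interval is given. A gene is called expressed here when its level was at least 1 FPKM in all 3 WT libraries.

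HEK293T cells divide rapidly and are used to produce proteins. A dividing cell spends much of its messenger RNA on ribosomal proteins and on respiratory chain subunits encoded by mitochondrial DNA. The secretory pathway takes membrane and secreted proteins through the Sec61 channel into the endoplasmic reticulum (ER), where they are glycosylated, given disulfide bonds and folded by chaperones. Misfolded proteins leave by ER-associated degradation (ERAD), in which SEL1L recruits substrates to the ubiquitin ligase HRD1. Folded cargo moves to the Golgi in COPII vesicles and escaped ER residents return in COPI vesicles.

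Promoter sequences are shown first for the ER chaperone and ribosomal protein genes that the results below turn on. The ER stress response element, CCAAT followed after 9 bases of any kind by CCACG, is the sequence through which ATF6 and XBP1 act on ER chaperone genes. It was searched on both strands of 250 bases before each RefSeq start site (GRCh38.p14) and was present in 26 of 35116 promoters (0.074%). Among the 206 genes fixed here as secretory machinery, 172 had a RefSeq promoter, and 7 of their 239 promoters (2.93%) held it. These belonged to HSPA5, HSP90B1, CALR, CANX, PDIA6 and ERO1B. The element is described for ER chaperone genes and the list includes such genes, so this share is not an independent result. Of the 184 promoters of secretory cargo genes, 0 held these letters. The windows below cover the elements of the ER chaperone BiP (HSPA5), GRP94 (HSP90B1) and calreticulin (CALR) with capitals on the CCAAT and CCACG parts or their reverse complements. They are at chr9:125241376-125241424 on the minus strand, chr12:103930201-103930354 on the plus strand and chr19:12938369-12938417 on the plus strand.
HSPA5: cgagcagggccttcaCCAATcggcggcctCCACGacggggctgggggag
HSP90B1: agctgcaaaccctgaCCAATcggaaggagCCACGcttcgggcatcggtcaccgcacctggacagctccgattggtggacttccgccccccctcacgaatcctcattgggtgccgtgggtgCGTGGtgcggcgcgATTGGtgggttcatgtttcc
CALR: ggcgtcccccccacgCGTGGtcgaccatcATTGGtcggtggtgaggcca

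Ribosomal protein messages begin with a C followed by a run of pyrimidines, the terminal oligopyrimidine tract through which their translation is controlled. The word CTTTCC was searched on the strand that reads like the message, from 15 bases before to 20 bases after the start site. This word was present in 21 of 85 ribosomal protein promoters (24.7%) and in 625 of all 35116 promoters (1.78%). It was chosen after the counts were seen from 6 overlapping words, and for the other 5 (the word CTTTC, the word CTTTT, the word CTCTTT, and CTTTCC preceded by T or by CT) the ribosomal protein share lay between 11.8% and 42.4% against 0.222% to 4.98% of all promoters. The 30 bases around the RefSeq start site are shown for RPS27, RPL35 and RPL13, which hold the word and are among the 25 most abundant genes below, with the word in capitals. They lie at chr1:153990747-153990776 (plus), chr9:124861943-124861972 (minus) and chr16:89560667-89560696 (plus). EEF1A1 (chr6:73521018-73521047, minus) and GAPDH (chr12:6535249-6535278, plus) are shown as abundant genes whose windows lack CTTTCC. The EEF1A1 window does hold CTTTT, another of the 6 words tried. From the start site it reads ctttttc, a C followed by pyrimidines.
RPS27: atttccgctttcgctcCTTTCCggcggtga
RPL35: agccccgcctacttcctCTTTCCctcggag
RPL13: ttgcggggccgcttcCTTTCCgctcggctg
EEF1A1: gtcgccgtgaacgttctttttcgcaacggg
GAPDH: agcgggtgcatccctgtccggatgctgcgc

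The WT libraries expressed a broad set of genes but placed much of their RNA in few of them. In replicates 1, 2 and 3, 15326, 15310 and 14379 of the 62714 annotated genes reached 1 FPKM. In all 3 libraries 13411 genes did so, of which 11599 were protein-coding, 1392 were long non-coding RNA genes and 323 were pseudogenes. The 100 most abundant genes of a library held 43.5%, 37.3% and 37.0% of its summed FPKM. Counting down from the top, 158, 251 and 271 genes were enough to hold 50%. Replicate 1 was the most concentrated library by these measures, whereas the 10 most abundant genes held more in replicate 3 (14.1%) than in replicate 1 (11.8%) or 2 (9.91%). Only 129, 124 and 122 genes reached 1000 FPKM, and 35347 genes were listed at 0 in all 3 libraries. Pearson's r of log2 levels over the 13411 genes was 0.974 between replicates 1 and 2, 0.959 between 2 and 3 and 0.939 between 1 and 3. Genes are not independent replicates, so these values only describe the libraries.

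The 25 most abundant genes by mean FPKM fell almost wholly into the mitochondrial and the cytosolic translation groups. Of the 25, 11 lie on the mitochondrial chromosome (10 protein genes and the ribosomal RNA gene MT-RNR2) and 12 encode cytosolic ribosomal proteins. The remaining genes were EEF1A1, the elongation factor that brings aminoacyl-tRNA to the ribosome, and BCYRN1, a short non-coding RNA. Together the 25 held between 16.8% (replicate 2) and 21.0% (replicate 1) of the summed FPKM. Their order was loose. For 23 of the 24 neighbouring pairs in the ranking the ranges over the 3 libraries overlapped, and 17 of the 25 were among the 25 highest of every library. Of the 25 genes, 21 have annotated transcripts of at least 300 bases.

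**Figure D1:**
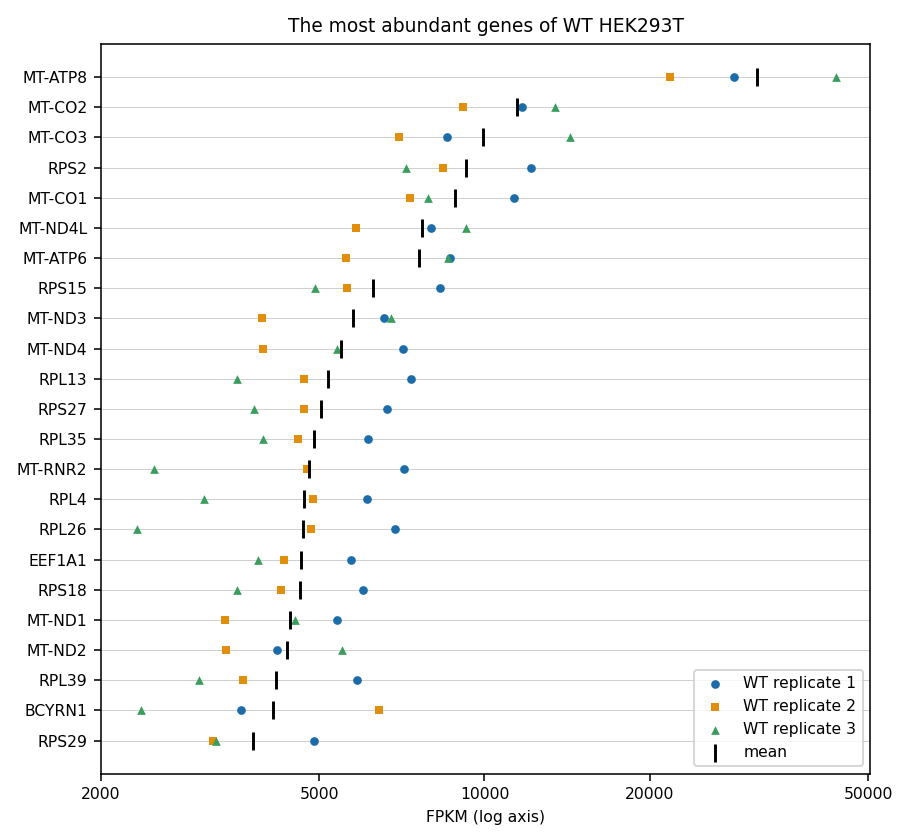
Level in FPKM (horizontal log axis) of 23 of the 25 genes with the highest mean over the WT HEK293T libraries, with a marker for each of the 3 libraries and a bar at the mean. MT-ATP8 stood apart at 21806 to 43621 FPKM, and all 10 ribosomal protein genes shown were highest in replicate 1.

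MT-ATP8, a subunit of the ATP synthase (chrM:8366-8572), was the most abundant gene at 28536, 21806 and 43621 FPKM in replicates 1, 2 and 3. Its range did not overlap that of the next gene. The annotated transcript is 207 bases long and its end overlaps the start of MT-ATP6, so fragments cannot be assigned to either with certainty, and short transcripts give less certain FPKM. The cytochrome oxidase subunits MT-CO2 (11719, 9138 and 13468 FPKM), MT-CO3 (8551, 6975 and 14342) and MT-CO1 (11323, 7325 and 7884) followed. MT-ATP6, the other mitochondrial ATP synthase subunit, was at 8658, 5582 and 8567 FPKM. MT-ND4L, MT-ND3, MT-ND4, MT-ND1 and MT-ND2, subunits of respiratory complex I, had means between 4360 and 7681 FPKM. All 13 mitochondrial protein genes were expressed, down to MT-ND5 at 1902 ± 160 FPKM (SD, n = 3). Every member of the 13 was lowest in replicate 2. Their share of the summed FPKM was 11.5%, 9.11% and 14.8%, or 11.8% ± 2.84 (SD, n = 3).

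Cytosolic ribosomal proteins took a larger share of the summed FPKM than any other group described here, at 26.9%, 21.2% and 17.8% in replicates 1, 2 and 3 (21.96% ± 4.57, SD, n = 3). Of the 87 genes of the group 85 were expressed, with a median level of 2107 FPKM over the group. RPS2, a protein of the small subunit (chr16:1962058-1964841), led at 12161, 8404 and 7182 FPKM. RPS15 reached 8281, 5618 and 4916 FPKM, and RPL13, of the large subunit, 7336, 4687 and 3533. RPS27 (6633, 4694 and 3798 FPKM) and RPL35 (6127, 4576 and 3941), whose start sites are printed above, showed the same order of libraries. Replicate 1 was the highest library for 81 of the 85 genes and replicate 3 the lowest for 70. RPL26 had a wide range among the leading genes, at 6857, 4832 and 2323 FPKM. Other members among the 25 most abundant genes were RPL4, RPS18, RPL39 and RPS29, with means between 3778 and 4691 FPKM. The knockout libraries held the same order of shares, 25.7%, 21.6% and 17.4% in HRD1 KO and 26.2%, 23.9% and 19.3% in SEL1L KO replicates 1, 2 and 3. Many ribosomal protein genes have processed pseudogenes with which they share sequence, so their reads can be split by the counting.

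Translation factors followed the ribosome. All 39 listed elongation and initiation factors were expressed, 34 of them at a mean of at least 100 FPKM, and together they held 2.56% ± 0.267 (SD, n = 3) of the summed FPKM. EEF1A1 reached 5720, 4309 and 3872 FPKM in replicates 1, 2 and 3. EEF1G, a subunit of its exchange factor, reached 3294, 2205 and 1789 FPKM. EEF2, which moves the ribosome along the message, reached 2258, 1401 and 1161 FPKM. In all of these, as in the ribosomal proteins, replicate 1 was highest and replicate 3 lowest.

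The non-coding RNAs among the abundant genes differed in which library was highest. The ribosomal RNA gene MT-RNR2 was at 7122, 4749 and 2503 FPKM, highest in replicate 1. BCYRN1 (chr2:47335315-47335514) was at 3593, 6412 and 2370 FPKM. The 3 neighbouring long non-coding RNA genes of chromosome 21, ENSG00000280614, ENSG00000280800 and ENSG00000281181, had identical values of 1954, 6403 and 1246 FPKM. They are near-identical copies that share their reads, and a single level cannot be assigned to each. Long non-coding RNAs held 2.73%, 4.37% and 2.17% of the summed FPKM, with replicate 2 highest. These shares include the 3 chromosome 21 genes, each at 0.360% of the summed mean FPKM. In replicate 2 each of them was at 6403 FPKM of a summed 859060. In replicates 1 and 3 each was at 1954 of 943110 and 1246 of 866490. The higher share of replicate 2 therefore need not hold for the other long non-coding RNA genes. Of the 1392 expressed long non-coding RNA genes, 645 were highest in replicate 1, 352 in replicate 2 and 395 in replicate 3. Since the libraries were made from polyadenylated RNA, such levels describe what remained after selection.

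The secretory machinery was expressed almost in full but took a small share of the RNA. Of its 206 genes 200 were expressed, 184 at a mean of at least 10 FPKM and 54 at a mean of at least 100. Its share of the summed FPKM was 1.81%, 1.99% and 1.92% in replicates 1, 2 and 3 (1.91% ± 0.0896, SD, n = 3), so the libraries differed less in it than in ribosomal proteins. The 176 cargo genes, which encode matrix, secreted, surface, GPI-anchored and lysosomal proteins, held 0.802%, 0.806% and 0.667% (0.758% ± 0.0793). Of these, 147 were expressed, 14 crossed 1 FPKM between libraries and 15 were below it in all 3. The lists are selections, so the shares describe the listed genes and not everything that enters the ER. Leaving mitochondrial genes out of the total raised the shares to 2.18% and 0.866%.

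**Figure D2:**
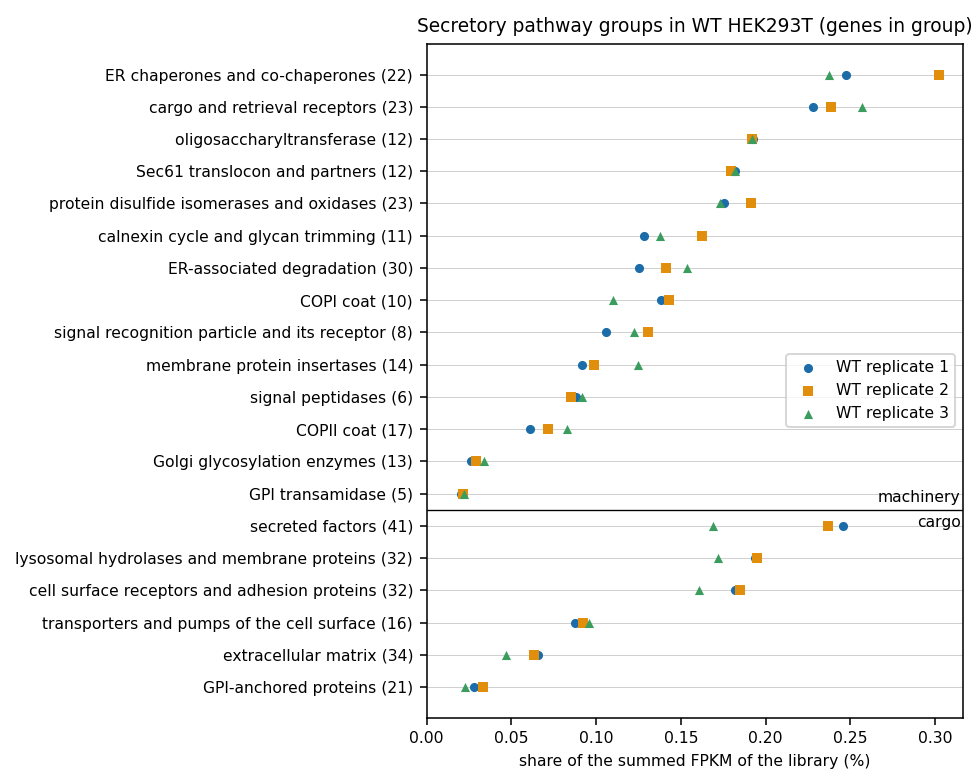
Share of the summed FPKM of each WT library (horizontal axis, percent) held by 14 machinery groups and 6 cargo groups, with the number of genes of each group in parentheses and a marker for each library. ER chaperones were highest in replicate 2, oligosaccharyltransferase was nearly equal in the 3 libraries, and secreted factors, lysosomal proteins and matrix were lowest in replicate 3.

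Genes for targeting and entry into the ER were all expressed, at levels from 3.07 FPKM (mean of TRAM2) to 458 FPKM (mean of SEC61G). All 8 genes of the signal recognition particle and its receptor were expressed, led by SRP9 at 380, 416 and 305 FPKM and SRP14 at 267, 301 and 299, with SRP19 at a mean of 101. All 12 genes of the Sec61 translocon group were expressed as well. SEC61G, the small gamma subunit of the channel, led them at 481, 459 and 434 FPKM, followed by SSR4 (315, 252 and 239) and SEC61B (247, 217 and 250). The channel-forming SEC61A1 was lower, at 86.0, 79.4 and 103 FPKM. The 14 membrane protein insertase genes, which serve tail-anchored and multi-spanning proteins, were all expressed, led by EMC6 at 202, 182 and 247 FPKM, TMCO1 at 147, 151 and 216 and EMC4 at 66.6, 69.7 and 84.5. The 6 signal peptidase genes were led by SPCS1 (173, 165 and 233 FPKM), SPCS2 (175, 144 and 224) and the catalytic subunit SEC11A (220, 178 and 121).

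The oligosaccharyltransferase, which attaches N-glycans, had a summed share that was nearly equal in the libraries, although its members varied by a median ratio of 1.26 between their highest and lowest library. Its 12 genes held 0.192% of the summed FPKM in each of the 3 libraries (SD 0.000186 percentage points). OST4 was at 279, 273 and 295 FPKM, KRTCAP2 at 308, 236 and 240, and DAD1 at 237, 233 and 249. The catalytic subunit STT3A, which acts at the translocon, was at 119, 123 and 117 FPKM, and STT3B, which acts on sites that were missed, at 42.1, 45.8 and 54.1. The ranges of STT3A and STT3B did not overlap.

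ER chaperones had the largest mean share of the machinery groups, at 0.247%, 0.302% and 0.238% of the summed FPKM. The range overlapped that of the cargo and retrieval receptors (0.228%, 0.239% and 0.257%), which were the larger group in replicate 3. All 22 genes were expressed. PPIB, a prolyl isomerase, led at 575, 490 and 468 FPKM. GRP94 (HSP90B1) was at 338, 504 and 301 FPKM and BiP (HSPA5), the ER Hsp70, at 194, 369 and 158, so that both were highest in replicate 2. FKBP10, an isomerase that acts on collagen, and FKBP2 had means of 202 and 200 FPKM. The J-domain partners of BiP were lower, with DNAJB11 at 43.4, 48.1 and 63.9 FPKM and DNAJC3 at 6.42, 9.76 and 6.79. HYOU1, an exchange factor for BiP, was at 44.4, 56.1 and 62.0 FPKM.

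Of the 23 disulfide isomerases and oxidases 20 were expressed. PRDX4, an ER peroxiredoxin, led at 334, 319 and 273 FPKM, followed by the protein disulfide isomerases P4HB (265, 229 and 214) and PDIA3 (201, 255 and 196). ERO1A, an oxidase that recharges them, was at 32.0, 43.0 and 38.9 FPKM. The 3 genes below 1 FPKM were AGR2, known from mucus-secreting epithelia, with a single value of 0.06 FPKM in replicate 3, and AGR3 and ERP27, both listed at 0. In the calnexin cycle, 10 of 11 genes were expressed. Calreticulin (CALR) was at 347, 501 and 434 FPKM, calnexin (CANX) at 244, 347 and 279 and PRKCSH, the regulatory subunit of glucosidase II, at 314, 229 and 176. The folding sensor UGGT1 was far lower at 7.39, 12.1 and 12.2 FPKM, and CALR3, a testis form of calreticulin, stayed between 0.09 and 0.43.

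All 30 listed ERAD genes were expressed, and the 2 genes that the series disrupts were among the lower ones. AUP1 (123, 115 and 206 FPKM), the p97 ATPase VCP (135, 128 and 127) and the conjugating enzyme UBE2G2 (83.9, 117 and 131) led the group. SYVN1 (chr11:65121780-65134532, minus strand), which encodes HRD1, was at 16.95, 16.70 and 16.92 FPKM and ranked 6144 among all genes. SEL1L (chr14:81471547-81533853, minus strand) was at 4.39, 8.74 and 12.85 FPKM and ranked 8671. SYVN1 was thus nearly constant while SEL1L differed 2.93-fold between the libraries, and in each library SYVN1 was the higher on the FPKM scale. Their partners were OS9 at 74.0, 59.5 and 51.6 FPKM, ERLEC1 at 18.6, 20.1 and 18.6, FAM8A1 at 14.2, 18.1 and 19.6 and UBE2J1 at 14.1, 13.6 and 19.3. OS9 and ERLEC1 are lectins that read trimmed glycans, and OS9 was the higher in every library. DERL3 had the lowest mean of the group, with 7.47, 6.38 and 7.84 FPKM in the libraries, although SEL1L was lower in replicate 1.

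The targeted genes were also read in the knockout libraries. SEL1L was at 1.82, 3.36 and 2.59 FPKM in SEL1L KO, below all WT values, with a log2 difference of -1.61 (SE 0.649; limma adjusted p = 1.0, and 0.466 with the replicate block). It was at 3.79, 19.3 and 24.1 FPKM in HRD1 KO. SYVN1 was at 22.5, 18.5 and 19.8 FPKM in HRD1 KO and at 28.9, 28.4 and 25.9 in SEL1L KO, all above WT. Its limma adjusted p was 1.0 in both comparisons, and 0.862 in HRD1 KO and 0.269 in SEL1L KO with the replicate block. An edited gene can still be transcribed, so the SYVN1 level does not check the HRD1 KO label.

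Transport and GPI attachment genes were expressed at intermediate levels. The GPI transamidase, which joins the lipid anchor to proteins, had all 5 subunits expressed, at means from 18.4 to 63.5 FPKM. GPAA1 was at 60.9, 59.9 and 69.7 FPKM, PIGT at 49.0, 46.0 and 47.2, PIGS at 32.2, 31.9 and 31.2, the catalytic PIGK at 28.9, 27.2 and 29.7 and PIGU at 20.7, 19.2 and 15.4. The ranges of neighbouring subunits did not overlap, so their order was the same in the 3 libraries. In the COPII coat 16 of 17 genes were expressed, led by SEC13 (132, 112 and 151 FPKM), TFG (71.1, 75.5 and 97.9) and PREB (61.8, 67.7 and 87.7). SEC16B was at most 0.05 FPKM. The 10 COPI genes were led by ARF1, the GTPase that starts coat assembly, at 628, 557 and 322 FPKM, with COPE and COPZ1 at means of 161 and 152, and only COPZ2 was below 1. All 23 cargo and retrieval receptors were expressed, with LMAN2 (274, 208 and 251 FPKM), BCAP31 (215, 209 and 222) and TMED2 (125, 192 and 277) highest. In the Golgi, the 13 glycosylation enzymes ran from MAN1C1 at a mean of 2.40 to MGAT4B at 82.9 FPKM, with MGAT1 and MAN2A2 at 48.4 and 33.0.

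Of 15 ER stress sensors and transcription factors 12 were expressed, with a median of 12.0 FPKM over the list, and ATF4 and XBP1 alone reached a mean of 100. ATF4, the factor made when eIF2alpha is phosphorylated, was at 769, 584 and 563 FPKM, and XBP1, whose messenger is spliced by IRE1, at 215, 183 and 133. MBTPS1, the protease that cleaves ATF6, was at 41.1, 43.6 and 43.0 FPKM. The sensors ERN1 (IRE1; 3.20, 4.18 and 2.90 FPKM), EIF2AK3 (PERK; 6.21, 7.16 and 7.24) and ATF6 (14.3, 17.8 and 17.6) lay below ATF4 and XBP1 in every library. DDIT3, which encodes CHOP, varied widely at 34.8, 23.0 and 8.21 FPKM. ERN2, the gut form of IRE1, and CREB3L3, a liver factor, were at most 0.18 and 0.34 FPKM. Message levels of this kind do not show how much of a factor was active.

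Among cargo, the listed secreted factors, lysosomal proteins and surface receptors held 0.217%, 0.187% and 0.176% of the summed FPKM on average, and matrix genes 0.0587%. BSG (basigin), of the surface receptor list, was the most abundant cargo gene at 687, 478 and 378 FPKM. Within that list it was ahead of APLP2 (177, 241 and 187) and CD81 (205, 163 and 164). Of the 41 secreted factors 29 were expressed. MDK (midkine), a heparin-binding growth factor, led them at 494, 456 and 185 FPKM, followed by B2M, the light chain of MHC class I (223, 200 and 198), and the protease inhibitor CST3 (220, 145 and 90.9). All 32 lysosomal genes were expressed, led by CD63 (284, 265 and 257 FPKM), NPC2 (223, 188 and 125) and GLA (150, 123 and 145).

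Of the 34 matrix genes 25 were expressed, none at a mean of 100 FPKM. Basement membrane genes were among the highest, with laminin LAMB2 at 94.0, 58.5 and 73.0 FPKM and LAMC1 at 43.7, 52.9 and 42.2, beside COL6A1 at 69.7, 55.0 and 60.4. Fibrillar collagen was scarce. COL1A1 was at 8.33, 7.98 and 3.28 FPKM, COL3A1 at 0.64, 0.79 and 0.52, and COL1A2 was listed at 0. SPARC was at 7.43 and 8.12 FPKM in replicates 1 and 2 and at 0.13 in replicate 3, and FN1 (fibronectin) was at 19.02, 10.6 and 6.10. Of the 16 transporters and pumps 15 were expressed, among them the amino acid carriers SLC1A5 at 146, 105 and 114 FPKM and SLC3A2 at 109, 86.0 and 77.7.

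GPI-anchored proteins were mostly low, with 16 of 21 genes expressed and a median mean level of 6.34 FPKM. GPC3 (glypican 3) led at 74.5, 66.7 and 26.3 FPKM, followed by the complement regulators CD55 (45.4, 53.7 and 42.6) and CD59 (30.4, 35.9 and 36.7). THY1 was listed at 0 in replicates 1 and 3. Of the 159 cargo genes with a mean of at least 1 FPKM, 90 (56.6%) were lowest in replicate 3, against 38.1% of all 15153 genes at that mean. For the 200 machinery genes at that mean the share was 36.0%.

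Lineage markers gave a mixed picture, with expressed genes from several unrelated cell types. Of 160 markers of 18 cell types, 43 were expressed, 97 were below 1 FPKM in all 3 libraries and 20 crossed that level, while 43 were listed at 0 in every library. Of all 20026 protein-coding genes 57.9% were expressed. Only VIM and UCHL1 reached a mean of 100 FPKM. Without WT replicate 3, 56 markers were expressed.

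**Figure D3:**
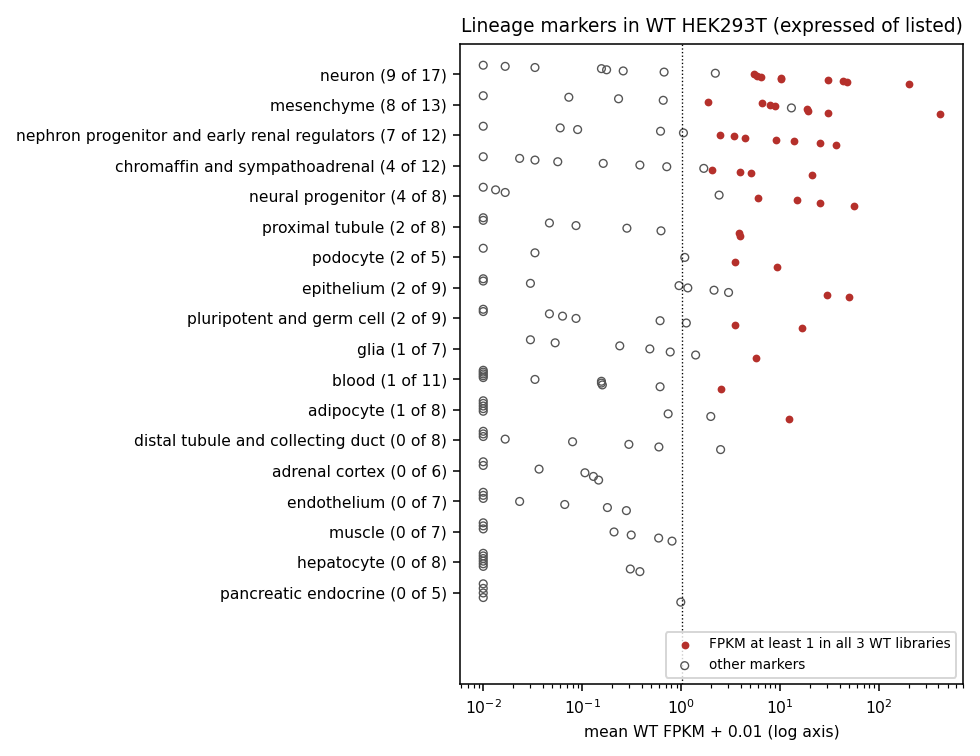
Mean WT level (horizontal log axis, FPKM plus 0.01) of each marker of 18 cell types, with filled points for markers at 1 FPKM or more in all 3 WT libraries and open points for the others. The dotted line marks 1 FPKM, and the numbers after each cell type give expressed and listed markers. Adrenal cortex, endothelium, hepatocyte, muscle, distal tubule and pancreatic endocrine lists had no expressed marker.

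Early kidney regulators were partly present. Of 12 nephron progenitor genes 7 were expressed, led by CITED1 (42.6, 35.5 and 33.4 FPKM) and SIX2 (20.2, 21.2 and 34.4), which mark or maintain the cap mesenchyme. SALL1, EYA1, WT1 and PAX2 had means of 9.08, 4.44, 3.46 and 2.45 FPKM. PAX8 was at 0.24 FPKM in replicate 1 and at 0 otherwise, and OSR1 was at most 0.10. Mature nephron genes were low or absent. The proximal tubule markers GGT1 (7.07, 3.28 and 1.45 FPKM) and LRP2 (4.38, 5.26 and 1.75), the endocytic receptor megalin, were expressed, while the transporters SLC22A6 and SLC22A8 were listed at 0. In the distal tubule and collecting duct list 0 of 8 were expressed, and UMOD and AQP2 were listed at 0. Of 5 podocyte genes 2 were expressed, among them PODXL at 8.34, 12.2 and 7.42 FPKM, while the slit diaphragm gene NPHS1 was at most 0.05. Of the markers of the labelled tissue, embryonic kidney, 7 of 12 early regulators, 2 of 8 proximal tubule, 2 of 5 podocyte and 0 of 8 distal tubule and collecting duct genes were thus expressed.

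Of 17 neuronal genes 9 were expressed. UCHL1, a neuronal deubiquitinase, was steady at 189, 206 and 206 FPKM. The neurofilament genes NEFL (49.0, 49.9 and 32.0 FPKM), NEFM (23.0, 29.7 and 39.98) and INA (4.41, 5.34 and 9.56) were all expressed. ENO2 was at 56.2, 73.8 and 14.3 FPKM, lowest in replicate 3. TUBB3, SYP, RBFOX3 and ELAVL2 had means of 10.2, 10.1, 5.90 and 5.51 FPKM. Several defining genes were not expressed, among them MAP2 (at most 0.34 FPKM), SNAP25 (at most 0.27), STMN2 (at most 0.28) and DCX, listed at 0. Among neural progenitor genes SOX4 (mean 56.0 FPKM), PAX6 (25.4), MSI1 (14.9) and SOX2 (6.04) were expressed, and SOX1, SOX11 and FABP7 were at most 0.02. OLIG2, at 4.31, 5.58 and 7.41 FPKM, was the single expressed glial marker of 7.

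An adrenal origin has been proposed for the line, and adrenal genes were read for this reason. All 6 adrenal cortex markers were below 1 FPKM in every library, with NR5A1, the master factor of steroid tissue, at 0.24, 0.17 and 0 FPKM and CYP11A1 at 0. Of the 12 chromaffin and sympathoadrenal markers 4 were expressed. These were the transcription factors GATA2 (17.5, 25.8 and 19.5 FPKM), ISL1 (3.86, 4.63 and 6.66), GATA3 (4.44, 3.64 and 3.68) and HAND2 (2.20, 1.91 and 1.99). The catecholamine enzymes TH and DBH were at most 0.46 and 0.04 FPKM. CHGA crossed 1 FPKM in replicate 2 only, at 1.05.

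A larger part of the mesenchymal than of the epithelial list was expressed, at 8 of 13 against 2 of 9 markers. Another 4 epithelial markers and 1 mesenchymal marker crossed 1 FPKM between libraries. Both lists summed lowest in replicate 3, at 106.5, 101.9 and 52.1 FPKM (epithelial) and 669, 546 and 362 FPKM (mesenchymal). VIM (vimentin) was the highest lineage marker of all at 569, 459 and 225 FPKM. CDH2 (N-cadherin) was at 18.2, 17.6 and 21.0 FPKM and TWIST1 at 18.1, 15.8 and 23.6. SNAI2 (Slug) was at 12.4, 15.8 and 63.7 FPKM, highest in replicate 3. ZEB2, ZEB1 and S100A4 had means of 8.81, 7.88 and 1.87 FPKM. ACTA2 went the other way, at 25.9, 12.3 and 0.96 FPKM. Of 9 epithelial markers, the simple keratins KRT18 (58.1, 49.8 and 41.1 FPKM) and KRT8 (36.7, 44.5 and 8.57) were expressed, CDH1 (E-cadherin) was at 1.37, 1.46 and 0, and KRT7 and KRT19 were listed at 0.

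Of the remaining lineages few markers were expressed. LIN28B (10.8, 19.9 and 19.6 FPKM) and KLF4 (2.27, 4.37 and 3.94) were the expressed genes of the pluripotent and germ cell list, in which POU5F1 was at most 0.70 and NANOG at 0. Of 11 blood markers 1 was expressed, and PTPRC, CD3E and the globin genes were listed at 0. PPARG, a nuclear receptor of fat cells, was steady at 11.7, 12.7 and 12.3 FPKM, while ADIPOQ, FABP4 and UCP1 were listed at 0. None of 7 endothelial, 7 muscle, 8 hepatocyte or 5 pancreatic endocrine markers was expressed. The liver genes ALB and APOA1 were at most 0.61 and 0.69 FPKM.

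HOX genes, which give cells their position along the body axis, were expressed from all 4 clusters. Of 39 genes 35 were expressed, 22 of them at a mean of at least 10 FPKM. In the HOXA cluster all 11 genes were expressed, in HOXB 9 of 10, in HOXC 8 of 9 and in HOXD 7 of 9. HOXA9 was highest at 79.7, 119 and 158 FPKM, followed by HOXB9 (82.0, 62.6 and 46.1), HOXA5 (46.5, 48.2 and 68.4) and HOXA10 (44.4, 51.0 and 61.3). The summed HOXA level was 270, 328 and 424 FPKM in replicates 1, 2 and 3, whereas HOXB summed to 223, 194 and 159, so the order of the libraries was opposite in these clusters.

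Posterior members were included. HOXD13 was at 37.1, 46.1 and 37.5 FPKM, HOXA13 at 10.6, 11.4 and 7.17, HOXC13 at 10.6, 8.52 and 8.47 and HOXB13 at 6.18, 5.17 and 6.82. The genes that stayed low were HOXB1 (listed at 0), HOXD1 (at most 0.38 FPKM), HOXD12 (at most 0.45) and HOXC12 (0.66, 1.27 and 0.46). Among the remaining expressed genes, HOXD11, HOXD10 and HOXD9 had means of 26.9, 22.7 and 18.1 FPKM, HOXA11, HOXA6 and HOXA3 of 19.3, 26.5 and 23.98, and HOXC4, HOXC9 and HOXC10 of 29.5, 22.6 and 16.4. HOXB6, HOXB3, HOXB7, HOXB8, HOXC6, HOXA4, HOXB2, HOXA7, HOXB5, HOXC11, HOXD4, HOXD8, HOXA2, HOXB4, HOXD3, HOXC8 and HOXC5 were also expressed, with means between 1.86 and 30.9 FPKM.

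**Figure D4:**
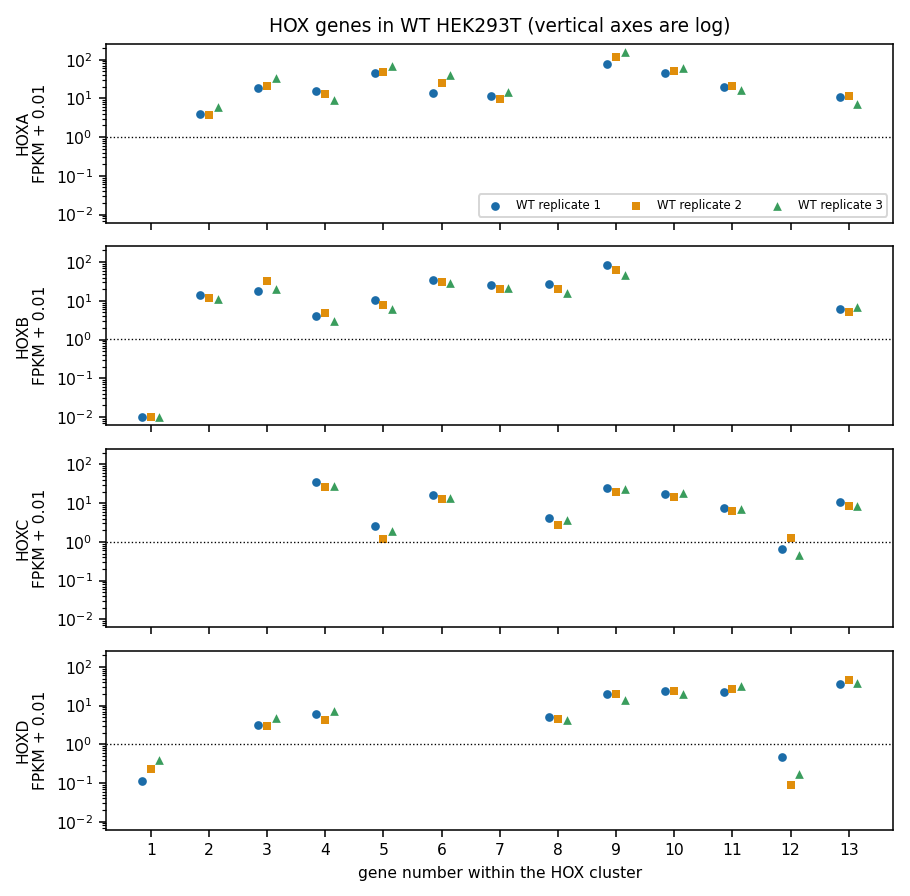
Level of 38 of the 39 HOX genes in the 3 WT libraries (vertical log axes, FPKM plus 0.01) by gene number within the HOXA, HOXB, HOXC and HOXD clusters. The dotted line marks 1 FPKM. Expressed genes ran through each cluster, with gaps at HOXB1, HOXC12, HOXD1 and HOXD12.

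Proliferation genes were uniformly expressed, as were genes of a list of cell cycle inhibitors and damage response genes. All 25 proliferation and DNA replication genes were expressed, the lowest being CCNE1 at a mean of 26.8 FPKM. The replicative helicase subunit MCM4 was at 324, 434 and 516 FPKM, HMGB2 at 361, 363 and 341 and the sliding clamp PCNA at 363, 318 and 341. All 11 genes of the latter list were expressed. CDKN2A, which encodes p16 and ARF, was by far the highest at 583, 492 and 395 FPKM, against 166, 143 and 149 for BAX and 86.4, 105 and 45.2 for GADD45A. RB1, the retinoblastoma gene, was at 8.82, 13.2 and 10.7. CDKN1A (p21), a CDK inhibitor, was at 24, 26.3 and 4.65 FPKM, lowest in replicate 3.

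The spread between the WT libraries was sizeable. Of the 13411 expressed genes, 2500 (18.6%) differed at least 2-fold between their highest and lowest library, and the median ratio was 1.48. Of the 5287 genes with a mean below 10 FPKM, 28.3% differed 2-fold, against 13.2% of 6921 genes between 10 and 100 and 7.10% of 1070 genes between 100 and 1000. The 133 genes of at least 1000 FPKM were less steady, at 15.04%. Among the 2500 genes replicate 3 was the lowest library for 1287. The count was 644 without WT replicate 3, 1195 without replicate 1 and 2003 without replicate 2, where the ratio is taken over 2 libraries. Long non-coding RNAs (33.5% of 1392) and pseudogenes (37.8% of 323) differed 2-fold more often than protein-coding genes (16.1% of 11599).

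Replicate differences went with transcript composition. When expressed protein-coding genes were split into 4 equal bins by transcript GC content, the bins began at 30.7%, 41.8%, 48.5% and 57.2% GC. In the lowest bin the median log2 ratio of replicate 3 to replicate 1 was 0.34, and it was 0.22, 0.07 and -0.17 in the following bins. In the knockout libraries the medians of the same bins were 0.43, 0.20, -0.03 and -0.29. By transcript length the WT medians ran from -0.11 in the shortest of 4 bins to 0.32 in the longest. The part of GC content and length in the levels was not tested.

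The 12 most spread genes with a mean of at least 10 FPKM were led by GEN1, a Holliday junction resolvase (chr2:17753858-17788946), at 5.46, 10.9 and 125 FPKM. SERPINF1, a secreted serpin, went the other way at 64.5, 45.7 and 2.88 FPKM, as did the hypoxia-induced ANKRD37 (17.6, 31.1 and 1.64) and C11orf96 (24.97, 16.4 and 1.64). EGR1, an immediate early transcription factor, was at 1.64, 30.6 and 18.9 FPKM. The apolipoprotein gene APOE (25.4, 20.2 and 2.01 FPKM), the protease inhibitor SPINT2 (72.8, 59.5 and 6.54), UNCX (26.4, 21.0 and 2.09) and PLPPR3 (19.9, 16.1 and 1.99) were all lowest in replicate 3. The rest were the long non-coding RNA genes ENSG00000259952 (3.37, 40.7 and 3.10 FPKM) and ENSG00000248367 (41.6, 20.5 and 4.21) and a gene annotated as MKKS with a transcript of 192 bases (18.02, 151 and 203).

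At the other end, 6 genes with a mean of at least 100 FPKM stayed within a ratio of 1.02. CLNS1A, a methylosome subunit, was at 236, 238 and 238 FPKM and CSNK1E, a casein kinase, at 323, 323 and 320. UBL5 was at 325, 322 and 326 FPKM and NUDT1, which hydrolyses oxidised nucleotides, at 110, 108 and 110. TMBIM6, an ER membrane protein, was at 145, 146 and 147 FPKM and PRRC2A at 108, 106 and 107.

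The knockout libraries, which were not used to pick the 2500 genes, were read for the same replicate numbers. In a limma fit of the 6 knockout libraries with genotype and replicate number as terms, 329 of 15796 genes (2.08%) differed by replicate number at an adjusted p below 0.05. Among the 2500 genes with a 2-fold spread in WT, 202 (8.08%) did so, against 59 (0.541%) of the 10911 expressed genes with less spread. Of the 202 genes, 149 were highest in the same replicate number in WT and in the knockouts, 191 were lowest in the same number and 2 were highest in WT where they were lowest in the knockouts.

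GEN1 was at 3.93, 11.3 and 125 FPKM in HRD1 KO and at 4.55, 9.57 and 109 in SEL1L KO replicates 1, 2 and 3 (log2 difference of replicate 3 from 1 of 4.75; limma adjusted p = 0.00177). SERPINF1 was lower in replicate 3 of the knockouts as well, by a log2 value of -3.12 (limma adjusted p = 0.0187). EGR1 was higher, by 3.02 (limma adjusted p = 0.0375). UNCX showed its WT pattern in SEL1L KO (44.7, 39.0 and 1.68 FPKM) but was at most 1.06 FPKM in HRD1 KO. The number of calls by replicate number changed widely with the library left out, as given below. Leaving out a knockout library leaves a single one of its replicate number. Such fits therefore cannot show whether the calls rested on the library left out.

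**Figure D5:**
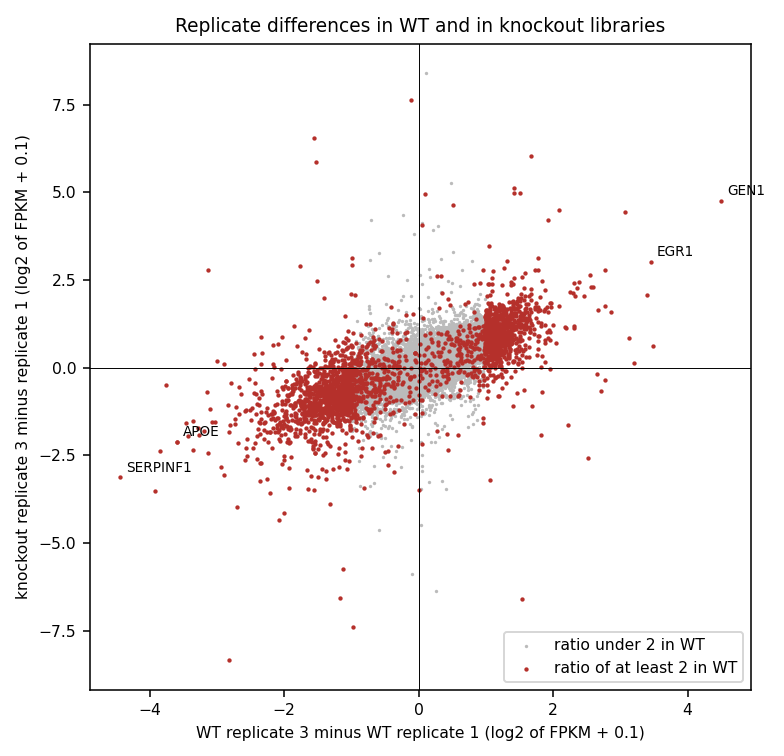
Difference of replicate 3 from replicate 1 in WT (horizontal axis) against the same difference fitted over the 6 knockout libraries (vertical axis), both in log2 of FPKM plus 0.1, for the 13411 expressed genes. Red points are the 2500 genes with a ratio of at least 2 in WT. GEN1 and EGR1 lay high in replicate 3 and SERPINF1 and APOE low, in WT and in the knockouts.

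The WT level of ER folding genes was then set against the knockouts, which share the WT libraries as control. The machinery share was 1.91% ± 0.0896 in WT, 2.91% ± 0.241 in HRD1 KO and 2.51% ± 0.180 in SEL1L KO (SD, n = 3 each), and neither knockout overlapped WT. The cargo share was 0.758% ± 0.0793, 0.776% ± 0.0903 and 0.692% ± 0.0387, with overlapping values. Between libraries of the same number it was lower in SEL1L KO than in WT in all 3 pairs (0.695%, 0.729% and 0.652% in SEL1L KO replicates 1, 2 and 3) and higher in HRD1 KO in all 3 (0.805%, 0.848% and 0.675%). ER chaperones accounted for much of the difference, with 0.262% ± 0.0350 in WT, 0.711% ± 0.135 in HRD1 KO and 0.584% ± 0.0842 in SEL1L KO.

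By gene, limma called 9 of 15796 genes in HRD1 KO against WT (0.057%), all higher in the knockout, and 5 in SEL1L KO (0.0317%), also all higher. With replicate number as a block it called 25 genes in HRD1 KO (0.158%), of which 24 were higher (0.152%) and 1, CEP152, was lower (0.00633%), and 12 in SEL1L KO (0.076%), all higher. Of the 200 machinery genes tested, 7 were among the genes called in HRD1 KO (16 with the block) and 3 among those in SEL1L KO (10 with the block). Median log2 differences over these 200 genes were 0.21 and 0.07, beside -0.05 and -0.06 over all genes tested. Of the 158 cargo genes tested and the 61 lineage markers tested, 0 were called in either comparison with limma. The lists were chosen with earlier results of these data known, so counts by list are not independent results. At an unadjusted limma p below 0.05 there were 46 machinery genes in HRD1 KO (45 higher) and 31 in SEL1L KO (30 higher), 4 cargo genes in each comparison and 4 and 2 lineage markers, beside 2.0% and 1.49% of all 15796 genes.

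The WT levels of the called genes were mostly low relative to the knockouts, with no overlap of ranges in the genes named here. PDIA4, a disulfide isomerase, was at 102, 119 and 108 FPKM in WT and had means of 661 in HRD1 KO (log2 difference 2.59, SE 0.164; limma adjusted p = 0.000348) and 445 in SEL1L KO (limma adjusted p = 0.00378). DERL3, a derlin, rose from a mean of 7.23 to 27.1 FPKM in HRD1 KO (adjusted p = 0.0252) and to 32.6 in SEL1L KO (limma adjusted p = 0.0139). MANF, a secreted ER stress factor, rose from 177 to 511 and 571 FPKM (limma adjusted p = 0.0292 and 0.0224). SDF2L1, PDIA6, CALR and HSP90B1 also rose in HRD1 KO (limma adjusted p between 0.0252 and 0.0345). BiP (HSPA5), with its element printed above, had 1247, 2846 and 1068 FPKM in HRD1 KO and 920, 1886 and 868 in SEL1L KO. Its adjusted p was 0.126 and 0.392 without the replicate block and 1.04e-05 and 4.78e-05 with it in limma, and replicate 2 was the highest library in all 3 groups.

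The number of calls changed when single libraries were left out. Each such fit also had fewer libraries, so the counts do not show whether calls rested on the library left out. For HRD1 KO it was 3 without WT replicate 1, 2 or 3, 18 without HRD1 KO replicate 3 (8 higher and 10 lower), 6 without HRD1 KO replicate 2 (3 higher and 3 lower), 8 without HRD1 KO replicate 1 (7 higher and 1 lower), 4 without SEL1L KO replicate 1 or 3 and 2 without SEL1L KO replicate 2. For SEL1L KO it was 3 without WT replicate 1, 1 without WT replicate 2, 2 without SEL1L KO replicate 1, 0 without SEL1L KO replicate 2 (223 genes at an unadjusted limma p below 0.05) and 9 without SEL1L KO replicate 3 (4 higher and 5 lower). Without WT replicate 2, 1 of the 3 HRD1 KO calls was lower, and without WT replicate 3, 1 of 5 SEL1L KO calls was lower.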

How the data were processed

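Polyadenylated RNA of HEK293T cells had been sequenced by the submitters as paired reads on 1 flow cell. Per the processing notes, the tools were FastQC 0.11.8, STAR 2.7.8a and RSEM 1.3.3 with GRCh38, and the authors deposited 1 table of FPKM values with 2 decimals for 62714 genes and 9 HEK293T libraries. Reads shared by near-identical genes are apportioned by RSEM, and FPKM keeps no read counts, so the depth per library is unknown. The table of the other tissue was not used here. Columns were mapped to samples by the labels. Positions and lengths came from GENCODE 44, which matched 62639 genes, and promoters from RefSeq (GRCh38.p14).

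Genes were ranked by mean FPKM over the WT libraries, and shares were taken of the summed FPKM of a library. WT and knockouts were compared with limma 3.58.1 (R 4.3.3) on log2(FPKM + 0.1) with a trended prior, in 15796 genes with at least 1 FPKM in 3 or more of the 9 libraries, with Benjamini-Hochberg adjustment over these genes and a threshold of 0.05. Fold changes on this scale understate changes of low genes. The script was tested on simulated data. Libraries with the same replicate number varied together. Their deviations from group means correlated at 0.216 to 0.485 in all 9 pairs with the same number. The 18 other pairs correlated at -0.396 to 0.0270. Deviations cancel within a group, so the values of the 18 pairs are not independent of those of the 9.

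Named genes were the 25 most abundant, the 3 highest of each list, all expressed lineage and HOX genes, the HRD1 complex, the 12 most spread genes (mean of at least 10 FPKM) and the 6 steadiest (mean of at least 100 FPKM). Some genes that the rule names are not reported here. Other genes named were chosen for their role after their values were seen. The members and lists were chosen with earlier results of these data known. Alternatives were other pseudocounts, filters, scalings, totals, the replicate block and leaving out each library.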

Additional observations from a re-analysis of the deposited data

How the results depend on the processing

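Of the 25 most abundant genes, 14 are not mitochondrially encoded. Leaving out mitochondrially encoded genes raised the number of genes holding 50% of the sum to 358. It gave shares of 2.18% for secretory machinery and 0.866% for cargo. Leaving out ribosomal protein genes as well gave 2.91% and 1.16%. The count of genes with a WT ratio of at least 2 was 1068 at a minimum of 5 FPKM, 11581 with no filter and the ratio taken of FPKM + 0.1, and 644 to 2003 when 1 WT library was left out.

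With the replicate block, limma called 25 genes in HRD1 KO and 12 in SEL1L KO, and 27 and 13 with median-ratio scaling as well (chosen after seeing the data). Without a filter SEL1L KO gave 9 (6 higher, 3 lower) and HRD1 KO 8 (5 higher, 3 lower). At an unadjusted p below 0.05 the counts were 316 and 236 (968 and 874 with the block), and 4792 by replicate number. Leaving out 1 library gave 2 to 18 calls in HRD1 KO, 0 to 9 in SEL1L KO and 0 to 934 by replicate number. Calls by replicate number were 104 and 553 with pseudocounts of 0.01 and 1 and 0 without a filter (4873 unadjusted). Among the genes with a WT ratio of at least 2 they were 65, 328 and 0, with 1401 unadjusted and 0 to 469 without 1 library. The causes were not tested. Another 77 summary values moved by no more than 1.5 times or 1 SD. Some counts of calls among them changed their split between higher and lower. The 125 alternative mean levels of the 25 most abundant genes stayed within 1 SD. Leaving out 1 of 3 libraries cannot move a mean by 1 SD, and scaling a whole library leaves its shares unchanged. For such values the outcome was fixed, so they do not show stability.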

Other observations

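Glycolysis, cytoskeleton and cytosolic folding genes each held between 1.07% and 1.34% of the summed FPKM of the WT libraries on average. Of 18 glycolysis genes 17 were expressed. GAPDH, the commonly used reference gene, was at 2946, 2478 and 1927 FPKM in replicates 1, 2 and 3, ENO1 had a mean of 1510 and LDHB, a lactate dehydrogenase subunit, of 1218. TPI1 was far steadier than GAPDH, at 837, 814 and 820 FPKM.

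All 24 actin, tubulin and partner genes were expressed, led by PFN1, TUBA1B and ACTG1 at means of 1837, 1628 and 1502 FPKM. ACTB, a second common reference gene, was at 740, 966 and 1788 FPKM, in the opposite order of libraries to GAPDH. Among 26 cytosolic and mitochondrial chaperones, PPIA led at 3246, 2898 and 3664 FPKM, ahead of HSPE1 and HSP90AB1 at means of 759 and 737. The heat shock gene HSPA1B was at 374, 1225 and 573 FPKM, highest in replicate 2 like the ER chaperone HSPA5. Its near-identical copy HSPA1A had a mean of 1.85 FPKM, and reads of the pair cannot be assigned with certainty. All 22 proteasome genes were expressed, led by PSMB1, PSMA4 and PSMB4 at means of 475, 462 and 392 FPKM, and their share was 0.398%, 0.461% and 0.551%.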
